A study of Homo sapiens with 18 samples.

Results

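The kinesin motor genes were taken by name: every gene symbol formed of KIF, a number and at most one of the letters A to C, together with KIFC1, KIFC2 and KIFC3. The rule found 42 genes among the 26475 with FPKM values (fragments scaled by transcript length and library size). From what each is known to do, 14 were grouped as mitotic kinesins, 15 as transport kinesins and 13 as other kinesins. This grouping was made with earlier results of these data known. KIF2A, which acts at spindle poles, was placed among the other kinesins. RNA was sequenced from C4-2B, a castration-resistant human prostate cancer cell line descended from LNCaP. Cultures received VIC-1911, an inhibitor of the mitotic kinase AURKA, at 0.1 µM, the PARP inhibitor olaparib at 1 µM, both drugs, or the DMSO vehicle. The 2-day experiment held vehicle and VIC-1911 cultures, and the 7-day experiment held vehicle, VIC-1911, olaparib and combination cultures, with 3 libraries in each of the 6 groups. The labels do not say whether the 3 libraries of a group were separate cultures, so the p-values measure the spread between these libraries. All of them come from one cell line.

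Kinesins are motor proteins that use ATP to move along microtubules or to take microtubule ends apart. In dividing cells one set of them builds the bipolar spindle, moves and aligns chromosomes and completes cytokinesis, and the genes of that set are transcribed mostly in G2 and mitosis. Another set carries vesicles, mitochondria and protein complexes along microtubules at all times of the cell cycle, and several of those were first studied in neurons. AURKA acts on the same spindle, and KIF11 depends on mitotic kinases for its loading there. Promoters of many genes of G2 and mitosis hold a CCAAT box, bound by the factor NF-Y, close to a CHR element, bound by the DREAM and MuvB complexes, whose usual letters are TTTGAA.

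The sequences of 4 mitotic and 2 transport kinesin promoters are shown because the CCAAT box and the TTTGAA element differed in frequency between the classes, and the naming rule used no sequence. Each is the 100 bases just before the transcription start in RefSeq, build GRCh38.p14, read 5′ to 3′ on the gene's own strand, and none of these stretches overlaps an exon in GENCODE. Capitals mark CCAAT or its reverse complement ATTGG, and TTTGAA or its reverse complement TTCAAA. They are KIF20A (chr5:138179012-138179111, plus strand), KIF11 (chr10:92593030-92593129, plus strand), KIF4A (chrX:70290004-70290103, plus strand), KIF14 (chr1:200620752-200620851, minus strand), KIF5B (chr10:32056426-32056525, minus strand) and KIF1C (chr17:4997850-4997949, plus strand).
KIF20A: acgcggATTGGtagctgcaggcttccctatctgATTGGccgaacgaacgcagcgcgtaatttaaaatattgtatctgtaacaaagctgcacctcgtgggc
KIF11: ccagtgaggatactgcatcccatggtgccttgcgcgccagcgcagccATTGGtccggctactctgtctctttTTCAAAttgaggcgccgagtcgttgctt
KIF4A: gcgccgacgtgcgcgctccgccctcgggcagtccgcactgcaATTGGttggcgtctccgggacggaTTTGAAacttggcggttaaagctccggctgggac
KIF14: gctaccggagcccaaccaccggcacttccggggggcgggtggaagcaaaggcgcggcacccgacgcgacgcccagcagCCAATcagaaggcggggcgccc
KIF5B: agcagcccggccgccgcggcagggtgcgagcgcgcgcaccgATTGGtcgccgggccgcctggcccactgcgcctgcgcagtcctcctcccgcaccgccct
KIF1C: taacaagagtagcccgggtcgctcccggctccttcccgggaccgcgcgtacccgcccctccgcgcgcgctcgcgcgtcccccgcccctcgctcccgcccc

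The search covered both strands of RefSeq windows running from 250 bases before to 50 bases after each start. Windows were at hand for 34 of the 42 genes, and a gene with several starts has several windows. CCAAT was in 11 of the 15 windows of mitotic kinesins (73.3%), in 5 of the 16 of transport kinesins (31.2%) and in 34.6% of all 35116 windows. TTTGAA or its variant TTCGAA was in 12 of the 15 mitotic windows (80%), in 1 of the 16 transport windows (6.25%) and in 16.4% of all windows. Both kinds stood together in 10 mitotic windows (66.7%), in 1 transport window (6.25%) and in 6.38% of all windows. The 2 windows of KIF22 overlap and share 1 TTCGAA match, so that by gene TTTGAA or TTCGAA was in 11 of 14 mitotic kinesins (78.6%), 1 of 11 transport kinesins (9.09%) and 19.5% of all genes. When only the bases before the start were searched, TTTGAA or TTCGAA was in 46.7% of the mitotic windows against 14.3% of all, because in KIF14, KIF18B, KIF20B, KIF4B and KIFC1 the match lay at or after the start. In KIF11 the CCAAT box began 53 bases and the TTTGAA match 28 bases before the start, and in KIF4A they began 58 and 34 bases before it. KIF20A held CCAAT matches 94 and 67 bases before the start and neither of the 2 CHR-like words, and KIF2C held none of the 3 words. KIF5B was the transport gene that held both kinds, its TTTGAA match lying 140 bases before the start, outside the stretch shown. The E2F-like words TTTCGCGC, TTTGGCGC and TTTCCCGC were in 1 of the 15 mitotic windows, that of KIF15, and in 2.74% of all windows. In the kinesin windows no match of one word overlapped a match of another. The GC content ran from 48.0% to 69.3% in the mitotic windows and from 51.7% to 87.0% in the transport windows. Its part in these shares was not tested. These are matches of letters and not mapped binding sites.

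Library depth ran from 3245273 to 7184420 counts at 2 days and from 4967931 to 19684208 counts at 7 days. At 2 days 32 kinesin genes, and at 7 days 37, passed the filter of at least 10 counts in at least 3 libraries, and 12 mitotic kinesins passed at both times. The other 2 mitotic kinesins were KIF2B, listed at 0 in all 18 libraries, and KIF4B, which never exceeded 0.0893 FPKM. Markers of the line were present at 2 and 7 days, with KLK3 at 1523 and 2681 FPKM in vehicle. Of 8 markers of other cells, KRT5 was at 0 throughout, PTPRC, PECAM1, CHGA, ALB and RBFOX3 had group means of at most 0.200 FPKM, SYP lay between 0.520 and 1.23 FPKM, and COL1A1, between 1.19 and 2.07 FPKM, was the highest. A gene is said here to have risen or fallen where the edgeR quasi-likelihood test gave a Benjamini-Hochberg adjusted p under 0.05 over all genes tested. It is called changed where the fold was also at least 1.5 at 2 days or at least 2 at 7 days. Comparisons with vehicle at 7 days share the same 3 vehicle libraries. In the labels the 7-day vehicle and VIC-1911 libraries have consecutive library names and the olaparib and combination libraries form another run of names, so that for olaparib or the combination against vehicle, and for either of them against VIC-1911, the run of names and the drug cannot be told apart. The comparison of VIC-1911 with vehicle and that of both drugs with olaparib each lie within one run.

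Summed over the class, the mitotic kinesins varied widely between the groups while the transport kinesins stayed in a narrow range. The mitotic sum was 156, 153 and 154 FPKM in the 2-day vehicle libraries (154 ± 1.23, SD, n = 3) and 135, 130.04 and 130.1 FPKM with VIC-1911 at 2 days (132 ± 2.7). At 7 days it was 64.2, 50.4 and 49.2 FPKM in vehicle (54.6 ± 8.33) and 119, 123 and 125 FPKM with VIC-1911 (122 ± 3.25). It was 69.5, 80.01 and 68.7 FPKM with olaparib (72.7 ± 6.31) and 57, 57.6 and 55.4 FPKM with the combination (56.6 ± 1.14). At 7 days every VIC-1911 library lay above every library of the other groups, every olaparib library lay above every vehicle and combination library, and the vehicle and combination libraries overlapped. Replicate 1 of the 7-day vehicle libraries stood above the other 2. The transport sum had group means between 167.2 and 188.7 FPKM. Single members moved in opposite directions within it. In vehicle at 2 and 7 days KIFC2 had means of 14.8 and 39.9 FPKM, and KIF5B of 60.6 and 52.3 FPKM. The ratio of the mitotic to the transport sum was 0.924 ± 0.0154 in vehicle at 2 days, 0.774 ± 0.00468 with VIC-1911 at 2 days, 0.289 ± 0.0446 in vehicle at 7 days, 0.674 ± 0.0192 with VIC-1911, 0.407 ± 0.0352 with olaparib and 0.321 ± 0.00516 with the combination (SD, n = 3 each). These sums are descriptions, with no test. The vehicle levels at 2 and 7 days come from separate experiments, deposited in separate tables, so that time and experiment cannot be told apart. In RNA from whole cultures, fewer cells in mitosis and less RNA per cell cannot be told apart either.

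**Figure D1:**
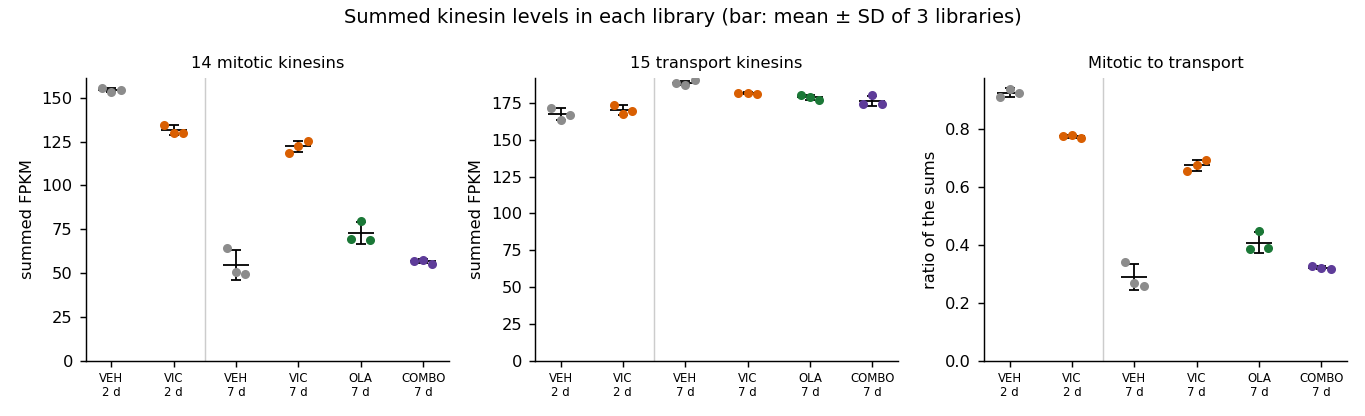
Summed FPKM of the 14 mitotic kinesins (left), summed FPKM of the 15 transport kinesins (middle) and their ratio (right) in each of the 18 libraries by group (x axis); points are libraries and bars the mean ± SD of 3. The mitotic sum is near 54.6 FPKM in 7-day vehicle and near 122.3 FPKM with VIC-1911, while the transport group means lie between 167.2 and 188.7 FPKM.

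At 2 days VIC-1911 lowered part of the mitotic kinesins by a little, and 2 transport kinesins rose. Of the 12 mitotic kinesins tested, 8 fell, none rose and none was called at 1.5-fold. Over all 12241 genes tested at 2 days 7.19% fell and 7.50% rose, and 1.33% and 0.825% were called lower and higher. The median log2 fold change of the 12 was −0.24 against −0.0034 for all genes. The largest fall was that of KIF11, the plus-end motor that pushes the spindle poles apart. It was at 11.9, 12.6 and 11.2 FPKM in the vehicle libraries and at 9.16, 9.17 and 9.33 FPKM with VIC-1911, with no overlap, a log2 fold change of −0.37 ± 0.073 (SE, adjusted p = 3.89e-04, edgeR). KIF2C, which takes apart microtubule ends at kinetochores, fell with a log2 fold change of −0.34 ± 0.069 (adjusted p = 4.79e-04). KIF23, a subunit of the centralspindlin complex of cytokinesis, fell with a log2 fold change of −0.33 ± 0.080 (adjusted p = 0.00384). The other 5 that fell were KIF18B, KIF14, KIFC1, KIF4A and KIF22, with log2 fold changes between −0.31 and −0.18 and adjusted p between 0.00876 (KIFC1) and 0.0464 (KIF14). The 4 that did not pass were KIF15 (−0.22), KIF20B (−0.14), KIF20A (−0.080) and KIF18A (0.24), all given as log2 fold changes. With DESeq2 in place of edgeR 3 mitotic kinesins passed, and 4 passed without vehicle replicate 1 and also without VIC-1911 replicate 2, so that the count at 2 days rests on single libraries and on the tool. Of 8 proliferation markers (MKI67, TOP2A, CCNB1, CCNA2, CDK1, PCNA, MCM2 and CCNE2), 6 fell at 2 days, MKI67 with a log2 fold change of −0.41. Their part in the kinesin values was not tested.

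After 7 days of VIC-1911 all 12 tested mitotic kinesins rose, and 11 were called at least 2-fold higher. Over all 14409 genes tested at 7 days 26.6% rose and 25.8% fell, and 3.46% and 3.43% were called higher and lower. The median log2 fold change of the 12 was 1.27 against −0.0053 for all genes. In all 12 the VIC-1911 libraries lay above the vehicle libraries with no overlap, which was so of 33.9% of all genes tested. KIF20A, which brings the chromosomal passenger complex to the central spindle, changed most. It was at 6.82, 4.76 and 4.11 FPKM in the vehicle libraries and at 19.4, 20.3 and 19.5 FPKM with VIC-1911. The log2 fold change was 1.83 ± 0.097, a 3.55-fold rise (adjusted p = 1.02e-15). At 2 days the same gene had been at 19.2, 21.9 and 22.3 FPKM in vehicle and at 20.2, 20.6 and 19.9 FPKM with VIC-1911. The VIC-1911 libraries of the 2 times thus lay close together, and the 7-day vehicle libraries stood lower than all of them.

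The motors of spindle assembly rose by similar amounts. KIF11 was at 3.73, 2.95 and 3.35 FPKM in vehicle and at 7.99, 8.33 and 8.77 FPKM with VIC-1911, a log2 fold change of 1.29 ± 0.094 (adjusted p = 1.41e-12). KIF15, which can hold the spindle bipolar when KIF11 fails, was at 1.48, 0.820 and 1.08 FPKM and then 2.81, 2.66 and 2.66 FPKM, a log2 fold change of 1.23 ± 0.14 (adjusted p = 1.35e-08). KIFC1, a minus-end motor that focuses spindle poles and gathers extra centrosomes, was at 2.94, 2.03 and 2.1 FPKM and then 5.94, 6.18 and 6.08 FPKM, a log2 fold change of 1.3 ± 0.092 (adjusted p = 8.02e-13). In GENCODE 14% of the exonic bases of KIFC1 are shared with the pseudogene RPL12P1 on the opposite strand, and the strand setting of the counting is not given in the sources used here.

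Chromosome movers rose as well, with KIF22 the exception in size. KIF18A, which dampens chromosome movements and aligns them at the equator, was at 1.19, 0.840 and 0.916 FPKM in vehicle and at 3.08, 3.0 and 3.18 FPKM with VIC-1911, a log2 fold change of 1.6 ± 0.15 (adjusted p = 2.79e-10). Its relative KIF18B, which acts on astral microtubules, was at 3.25, 2.33 and 2.48 FPKM and then 6.95, 7.63 and 7.68 FPKM, a log2 fold change of 1.41 ± 0.099 (adjusted p = 5.89e-13). KIF4A, a chromatin-bound motor that also organises the central spindle, was at 4.9, 2.89 and 3.1 FPKM and then 10.3, 10.6 and 10.6 FPKM, a log2 fold change of 1.47 ± 0.11 (adjusted p = 4.73e-12). Its transcript is 95.3% identical to that of KIF4B over 4345 aligned bases, so that reads could be split between them. KIF2C was at 7.82, 6.17 and 4.98 FPKM and then 14.1, 14.3 and 14.4 FPKM, a log2 fold change of 1.09 ± 0.091 (adjusted p = 2.80e-11). KIF22, a chromosome-arm motor and the mitotic kinesin with the highest level in all 6 groups, was at 23.8, 20.5 and 19.7 FPKM in vehicle and at 30.6, 32.2 and 34.7 FPKM with VIC-1911. Its log2 fold change of 0.56 ± 0.064 passed the test (adjusted p = 1.76e-08) and stayed under 2-fold.

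The cytokinesis motors completed the class. KIF14, needed for late cytokinesis, was at 1.58, 1.44 and 1.42 FPKM in vehicle and at 4.0, 3.6 and 3.47 FPKM with VIC-1911, a log2 fold change of 1.26 ± 0.088 (adjusted p = 5.50e-13). KIF23 was at 4.38, 3.37 and 3.99 FPKM and then 8.87, 9.45 and 9.32 FPKM, a log2 fold change of 1.2 ± 0.096 (adjusted p = 9.53e-12). KIF20B was at 2.31, 2.32 and 1.92 FPKM and then 4.69, 4.57 and 4.85 FPKM, a log2 fold change of 1.04 ± 0.082 (adjusted p = 9.78e-12). Vehicle replicate 1 stood highest of the 3 vehicle libraries in all of these genes but KIF20B, and without it 11 of the 12 were still called higher with a median log2 fold change of 1.44. Tested against the 2-fold limit itself with glmTreat, 7 of the 12 passed, and the share of all genes was not counted there. All 8 proliferation markers rose too, 7 of them by at least 2-fold, among them CDK1 (1.82) and MKI67 (1.28) in log2 fold change, and their part in the kinesin values was not tested.

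**Figure D2:**
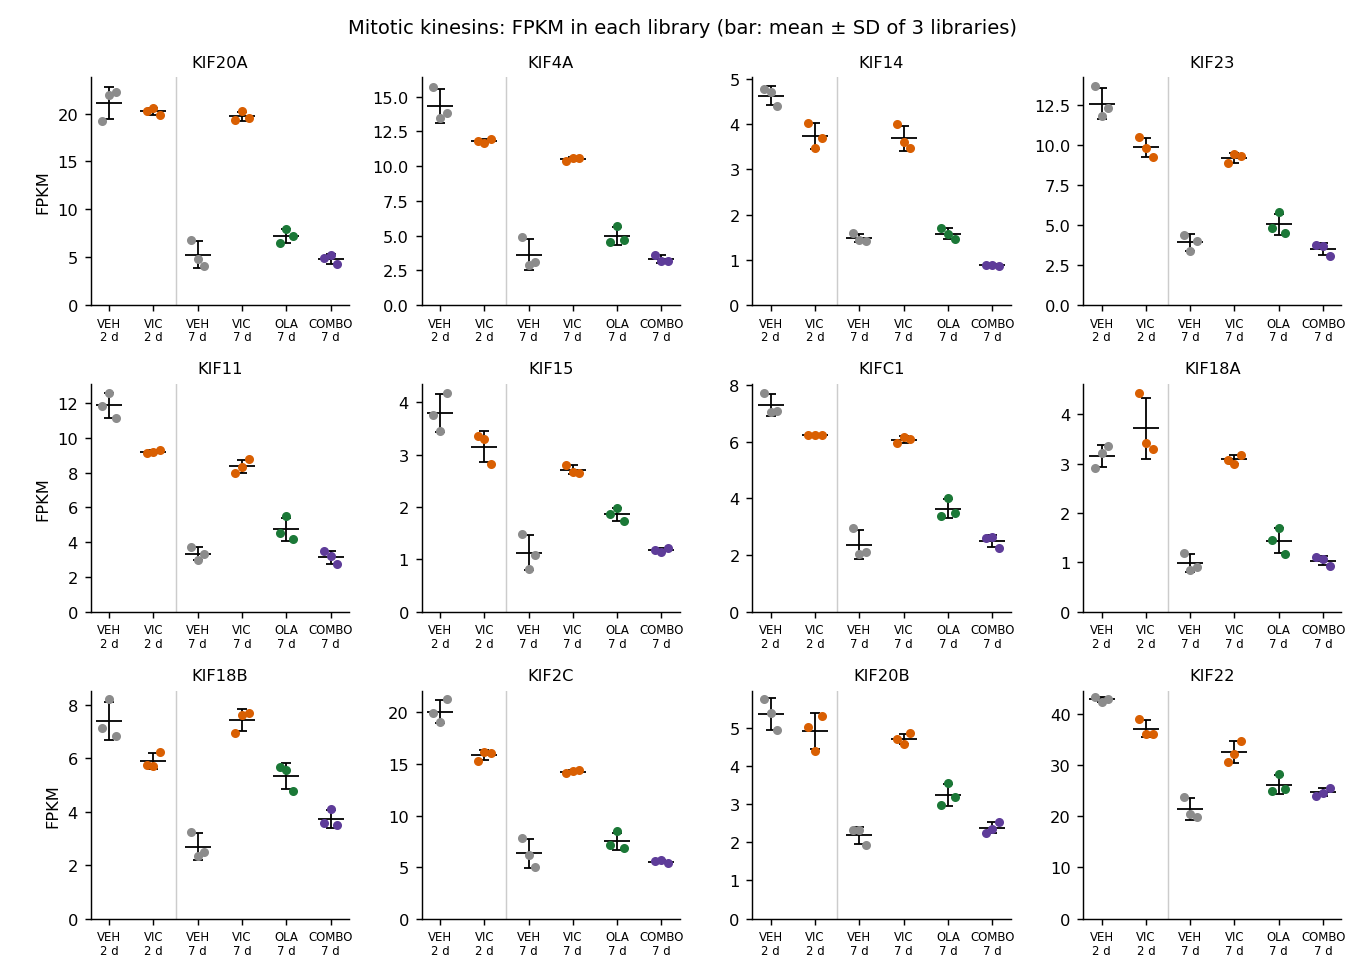
FPKM (y axis, from 0) of the 12 tested mitotic kinesins in each library of the 6 groups (x axis; VEH vehicle, VIC VIC-1911, OLA olaparib, COMBO both drugs; 2 d and 7 d are days); points are libraries and bars the mean ± SD of 3. In every panel the 3 VIC-1911 libraries of 7 days lie above the vehicle libraries of 7 days, and the combination libraries lie below the VIC-1911 libraries.

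Olaparib alone gave smaller rises of the same genes. Of the 12 mitotic kinesins 10 rose and none was called 2-fold, where 28.1% of all genes rose, 25.9% fell, and 3.63% and 3.53% were called higher and lower. The median log2 fold change was 0.47 against 0.01 for all genes, and in 7 of the 12 the olaparib libraries all lay above the vehicle libraries, which was so of 31.9% of all genes, with 26.9% the other way. KIF18B rose most, from the vehicle values above to 5.66, 5.56 and 4.79 FPKM, a log2 fold change of 0.94 ± 0.10 (adjusted p = 7.34e-09). KIF15 rose by 0.71 ± 0.15 and KIFC1 by 0.60 ± 0.097 on the log2 scale (adjusted p = 1.52e-04 and 5.34e-06). KIF20B, KIF18A, KIF11, KIF4A, KIF20A, KIF23 and KIF22 rose with log2 fold changes between 0.27 and 0.55. KIF18A, KIF4A and KIF23 did not pass without vehicle replicate 2 or without olaparib replicate 2, and the count of 10 was then 7. KIF14 (0.034 ± 0.098) and KIF2C (0.20 ± 0.098), in log2 fold change, did not pass the test. Without vehicle replicate 1, which stood high, 2 mitotic kinesins were called at 2-fold, and 1 was called without olaparib replicate 3. Compared directly with VIC-1911, all 12 were lower with olaparib and 4 were called, namely KIF20A (−1.4), KIF14 (−1.22), KIF18A (−1.09) and KIF4A (−1.03) in log2 fold change, where 12.3% of all genes fell, 11.1% rose, and 0.555% and 0.895% were called lower and higher. In all 12 the olaparib libraries lay below the VIC-1911 libraries, which was so of 24.1% of all genes, and the run of library names and the drug cannot be told apart there.

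With both drugs the mitotic kinesins stood near their vehicle levels. Of the 12, 2 rose, 2 fell and 8 did not pass, and none was called, against 28.6% of all genes that rose, 28.0% that fell, and 4.55% and 4% called higher and lower. The combination libraries all lay above the vehicle libraries in 2 of the 12 and all below in 1, against 30.1% and 29.1% of all genes. The median log2 fold change was −0.012 against 0.0047 for all genes. KIF20A was at 4.94, 5.2 and 4.27 FPKM, which overlapped its vehicle libraries (log2 fold change −0.17 ± 0.11, adjusted p = 0.190). KIF11 was at 3.48, 3.19 and 2.74 FPKM (log2 fold change −0.085 ± 0.10, adjusted p = 0.500). KIF14 went further down than any other member of the class, to 0.889, 0.890 and 0.863 FPKM, below all vehicle libraries (log2 fold change −0.76 ± 0.10, adjusted p = 3.74e-07). KIF18B stayed above vehicle at 3.58, 4.1 and 3.5 FPKM (log2 fold change 0.45 ± 0.11, adjusted p = 6.15e-04). The small changes of KIF22 (0.19) and KIF2C (−0.24) in log2 fold change passed at adjusted p = 0.0118 and 0.0424, and each was lost without any one of 3 libraries, KIF22 without vehicle replicate 2 or 3 or combination replicate 3 and KIF2C without vehicle replicate 1 or combination replicate 2 or 3. The count of 4 that passed became 2 without combination replicate 3. Without vehicle replicate 1 the median log2 fold change was 0.13 and 5 passed.

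Against VIC-1911 alone, all 12 mitotic kinesins fell with the combination and 9 were called at least 2-fold lower, where 22.2% of all genes fell, 20.7% rose, and 1.82% and 2.23% were called lower and higher. All 12 had combination libraries below every VIC-1911 library, as had 29.8% of all genes. Here too the run of library names and the drug cannot be told apart. The median log2 fold change was −1.34. KIF14 (−2.02 ± 0.092) and KIF20A (−2.0 ± 0.096) fell most, at adjusted p = 2.40e-16 and 5.54e-16. The 3 that fell by less than 2-fold were KIF18B (−0.96), KIF20B (−0.94) and KIF22 (−0.36). Against olaparib alone, 10 of the 12 fell with the combination and none was called, where 6.95% of all genes fell, 4.55% rose, and 0.0902% and 0.291% were called lower and higher. The median log2 fold change was −0.53 against 0.00087 for all genes. KIF14 again fell most (−0.79 ± 0.10, adjusted p = 4.54e-06), followed by KIF15 (−0.63), KIF20A (−0.60), KIF4A (−0.59) and KIF11 (−0.59) in log2 fold change. KIF18A (−0.44 ± 0.16, adjusted p = 0.0711) and KIF22 (−0.082 ± 0.063, adjusted p = 0.457) did not pass. The libraries of 11 of the 12 lay below the olaparib libraries with no overlap, KIF22 excepted, which was so of 16.2% of all genes.

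At 7 days VIC-1911 alone thus raised all 12 of these genes, and on top of olaparib 10 of them fell. The interaction, the change with VIC-1911 on top of olaparib less the change with VIC-1911 on top of vehicle, was negative and passed in all 12 mitotic kinesins, where 22.9% of all genes were lower and 21.0% higher. Its median was −1.86 on the log2 scale, ranging from −2.43 ± 0.14 in KIF20A to −0.64 ± 0.090 in KIF22 (adjusted p = 2.52e-14 and 1.06e-06). The difference between the VIC-1911 effects at 7 and at 2 days passed in all 12 as well and was positive, where 14.6% of all genes were higher and 14.2% lower. Its median was 1.51, ranging from 0.72 in KIF22 to 1.89 in KIF20A. Both counts of 12 held without each library in turn.

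**Figure D3:**
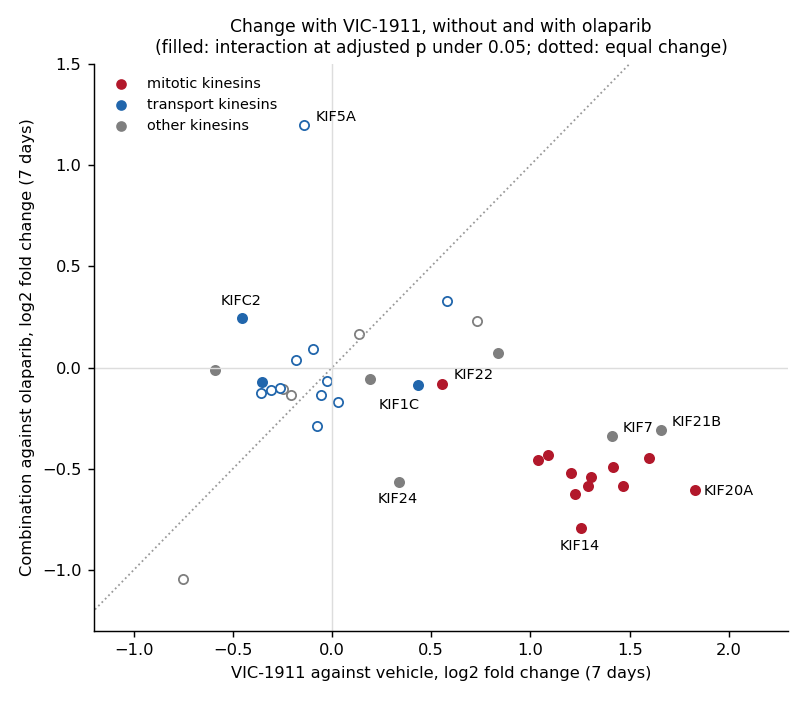
Log2 fold change at 7 days with VIC-1911 against vehicle (x axis) and with the combination against olaparib (y axis) for the 37 kinesin genes tested; red mitotic, blue transport, grey other, filled where the interaction passed, with a dotted line of equal change. The 12 mitotic kinesins lie below the line, with KIF20A at 1.83 and −0.60 and KIF22 nearest the line.

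Among the transport kinesins changes at 7 days ran both ways. With VIC-1911 at 7 days their median change was smaller in size than that of the mitotic class, and with the combination it was larger. At 2 days 2 of the 12 tested rose and none fell, KIF1C by 0.25 ± 0.050 (adjusted p = 3.97e-04) and KIF5C by 0.28 ± 0.079 (adjusted p = 0.0118) on the log2 scale. Without vehicle replicate 3 or VIC-1911 replicate 1, and with DESeq2 or limma, 1 of them passed. At 7 days 14 were tested. With VIC-1911 1 rose, 6 fell and none was called, with a median log2 fold change of −0.12. With olaparib 3 rose and 7 fell, with a median of −0.13, and with the combination 3 rose and 6 fell, with a median of −0.21. The shares of all genes that rose or fell were given above. Against VIC-1911 alone 4 rose and 4 fell with the combination, where 20.7% of all genes rose and 22.2% fell. With olaparib 3 rose and 2 fell against VIC-1911, where 11.1% of all genes rose and 12.3% fell. In both of these the run of library names and the drug cannot be told apart. Against olaparib alone 1 rose and 1 fell with the combination, where 4.55% of all genes rose and 6.95% fell. The interaction passed in 3 of the 14, higher in KIF1A (0.28) and KIFC2 and lower in KIF1C (−0.52). Over all genes 21.0% were higher and 22.9% lower there. The effect of VIC-1911 was lower at 7 than at 2 days in 4, namely KIF1A, KIF3B, KIF5C and KIFC2. For that difference 14.2% of all genes were lower and 14.6% higher.

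KIF5B, the heavy chain of conventional kinesin, had the highest mean level of all 42 genes in every group but the combination, where KIFC2 stood as high. It was at 61.8, 61 and 59.1 FPKM in vehicle and 60.7, 59.4 and 61.9 FPKM with VIC-1911 at 2 days. At 7 days it was at 51.4, 51.6 and 53.8 FPKM in vehicle, 52.3, 52.9 and 53.5 FPKM with VIC-1911, 44.8, 45.2 and 45.2 FPKM with olaparib and 40.4, 44.6 and 43.2 FPKM with the combination. The olaparib and combination libraries all lay below the vehicle libraries, with log2 fold changes of −0.23 ± 0.043 and −0.29 ± 0.043 (adjusted p = 4.92e-05 and 9.89e-07), and VIC-1911 gave −0.028 ± 0.043 (adjusted p = 0.611). KIF5C, a heavy chain known best from neurons, fell with VIC-1911 at 7 days, with a log2 fold change of −0.18 ± 0.077 (adjusted p = 0.0491), with libraries that overlapped. It no longer passed with DESeq2, with limma, without scaling, or without any one of 4 of the 6 libraries (vehicle or VIC-1911 replicates 2 and 3). The third heavy chain, KIF5A, was called lower with olaparib at 1 to 4 counts a library: 15, 12 and 2 counts in vehicle against 1, 1 and 4 counts with olaparib (log2 fold change −2.31 ± 0.62, adjusted p = 0.00246). KIF5A passed the count filter through vehicle and VIC-1911 libraries alone, and without vehicle replicate 1 or replicate 2 it no longer passed the filter.

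KIF1C, a fast motor of dense-core vesicles and integrins, rose in every comparison with vehicle. It was at 27.3, 24 and 24.7 FPKM in vehicle, 36.2, 33.4 and 36.5 FPKM with VIC-1911, 33.9, 32.7 and 34.3 FPKM with olaparib and 32.7, 30.6 and 30.6 FPKM with the combination at 7 days. All treated libraries lay above the vehicle libraries, with log2 fold changes of 0.44, 0.39 and 0.30 (adjusted p = 1.08e-08, 9.83e-08 and 5.02e-06). KIF1A, its relative that carries synaptic vesicle precursors in neurons, fell in the 3 comparisons with vehicle at 7 days and did not pass at 2 days (log2 fold change 0.046). At 7 days it was at 18.5, 17.1 and 18.4 FPKM in vehicle, 14.9, 13.9 and 14.8 FPKM with VIC-1911, 15.2, 13.4 and 14.1 FPKM with olaparib and 12.6, 14.1 and 13.2 FPKM with the combination, with log2 fold changes of −0.35, −0.37 and −0.44 (adjusted p = 1.60e-06, 9.04e-07 and 2.48e-08). KIF1B, the mitochondrial and synaptic vesicle motor, passed in none of the comparisons with vehicle, its log2 fold changes lying between −0.14 and 0.0014.

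KIF3A and KIF3B are subunits of the heterotrimeric kinesin-2 motor of cilia. KIF3B was at 22, 22.5 and 21.2 FPKM in vehicle at 7 days and fell with VIC-1911 (−0.26), olaparib (−0.35) and the combination (−0.45) in log2 fold change, the last at 15.1, 17.4 and 15.7 FPKM (adjusted p = 2.03e-08). Its partner KIF3A was at 5.05, 5.49 and 6.23 FPKM in vehicle and rose with olaparib (0.23) and the combination (0.33) in log2 fold change, the last at 7.19, 6.97 and 6.63 FPKM (adjusted p = 3.67e-04). The olaparib rise was lost without vehicle replicate 1 or olaparib replicate 1. With VIC-1911 its log2 fold change was −0.095 ± 0.077 (adjusted p = 0.314). The alternative partner KIF3C did not pass against vehicle, with log2 fold changes of 0.032, 0.21 and 0.036. KIFAP3, which joins the motor pair to cargo, fell with all 3 treatments, with log2 fold changes of −0.55 for VIC-1911, −0.43 for olaparib and −0.37 for the combination.

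Of the endosome and membrane motors, KIF13A fell with all 3 treatments at 7 days (−0.31, −0.26 and −0.37), and so did KIF16B (−0.36, −0.54 and −0.66), all in log2 fold change. The fall of KIF16B with VIC-1911 was lost with DESeq2 and without any one of 4 of the 6 libraries (vehicle replicates 2 and 3, VIC-1911 replicates 1 and 3). KIF13B fell with the combination (−0.41 ± 0.063, adjusted p = 1.87e-06) and did not pass with VIC-1911 (−0.075) or olaparib (−0.12). KIFC2, a minus-end motor, was at 39.4, 40.5 and 39.9 FPKM in vehicle at 7 days, 29.9, 32.4 and 28.1 FPKM with VIC-1911, 37.3, 37.5 and 35.1 FPKM with olaparib and 44.7, 41.5 and 42.4 FPKM with the combination, against 14.2, 14.9 and 15.2 FPKM in vehicle at 2 days. It fell with VIC-1911 (log2 fold change −0.45 ± 0.052, adjusted p = 1.53e-08) and rose when VIC-1911 was added to olaparib (0.25 ± 0.051, adjusted p = 0.00138). This was the reverse of the order in the mitotic class, with an interaction of 0.70 ± 0.072 (adjusted p = 4.21e-09). FOXH1 on the opposite strand shares 17.8% of its exonic bases. KIFC3, another minus-end motor, was called higher with the combination (log2 fold change 1.31 ± 0.31, adjusted p = 6.33e-04) at 0.456, 0.499 and 0.420 FPKM against 0.268, 0.0951 and 0.214 FPKM in vehicle. Without vehicle replicate 2 it rose by less than 2-fold. KIF17, which at 7 days stayed under 0.19 FPKM, was not tested.

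**Figure D4:**
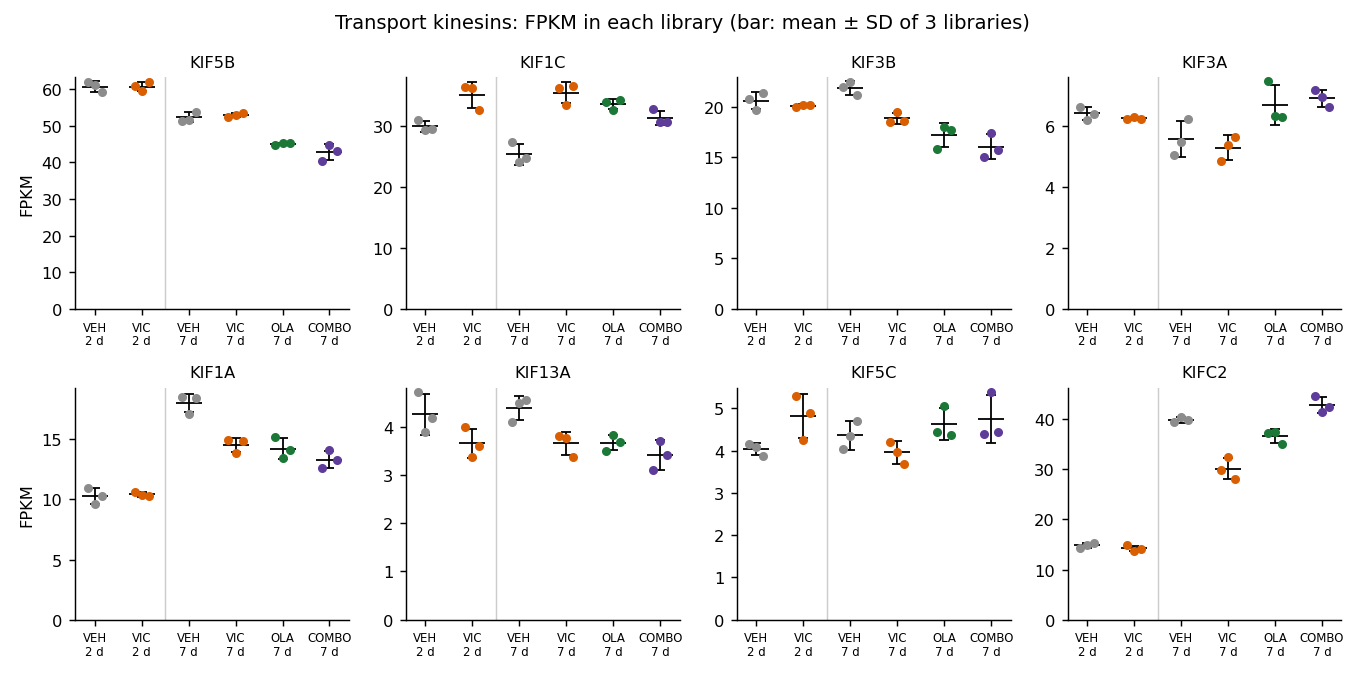
FPKM (y axis, from 0) of 8 transport kinesins in each library of the 6 groups (x axis); points are libraries and bars the mean ± SD of 3. KIF1C lies higher and KIF1A and KIF3B lower in the treated libraries of 7 days than in vehicle, and KIFC2 is near 14.8 FPKM in 2-day and near 39.9 FPKM in 7-day vehicle.

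Most of the 13 other kinesins were low, and KIF7, KIF21B and KIF26B were called changed against vehicle. KIF7, which sits at the tip of the primary cilium and regulates Hedgehog signalling, was at 0.459, 0.580 and 0.622 FPKM in vehicle at 7 days, 1.21, 1.71 and 1.51 FPKM with VIC-1911, 1.24, 1.37 and 1.45 FPKM with olaparib and 0.981, 1.23 and 1.07 FPKM with the combination. All treated libraries lay above the vehicle libraries. It was called higher with VIC-1911 (log2 fold change 1.41 ± 0.17, adjusted p = 3.35e-08) and olaparib (1.33 ± 0.17, adjusted p = 1.07e-07), and rose by 0.99 ± 0.17 with the combination (adjusted p = 1.47e-05). In GENCODE 10.8% of its exonic bases overlap TICRR, a replication gene on the opposite strand. KIF21B, a motor that limits microtubule growth, was called higher with VIC-1911 (1.66), olaparib (1.48) and the combination (1.17) in log2 fold change, all at under 0.2 FPKM. Its counts were 12, 12 and 3 in vehicle, 22, 25 and 38 with VIC-1911, 12, 28 and 42 with olaparib and 41, 14 and 16 with the combination. The combination call rested on replicate 1, without which the adjusted p was 0.157. KIF26B was called higher with the combination at 20, 14 and 19 counts against 9, 6 and 6 in vehicle (log2 fold change 1.11 ± 0.46, adjusted p = 0.0401), a call that DESeq2 did not make and that was lost without any one of 5 of the 6 libraries, vehicle replicate 3 excepted.

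KIF24, a centriole motor that restrains cilia, moved in the directions of the mitotic class at 2 days and with VIC-1911 at 7 days. It fell at 2 days (−0.44 ± 0.12, adjusted p = 0.0128), rose with VIC-1911 at 7 days (0.34 ± 0.12, adjusted p = 0.0158) and fell with the combination (−0.47 ± 0.12, adjusted p = 0.00181), all in log2 fold change, and its 7-day interaction was −0.90 ± 0.17 (adjusted p = 6.89e-05). The fall at 2 days was lost with DESeq2 and without vehicle or VIC-1911 replicate 3, and the rise at 7 days without vehicle replicate 2 or 3 or VIC-1911 replicate 3. Its promoter window held 3 CCAAT matches and a TTCGAA match next to the start. KIF2A, the relative of KIF2C that acts at spindle poles and in neurons, rose with VIC-1911 at 7 days by 0.19 ± 0.060 (adjusted p = 0.00761) at a level of 9.18, 9.97 and 10.2 FPKM, which was lost without vehicle replicate 1 or VIC-1911 replicate 3. It shares 21.3% of its exonic bases with genes that overlap it, DIMT1 among them. KIF21A fell with VIC-1911, olaparib and the combination (−0.20, −0.24 and −0.37), as did KIF27 (−0.59, −0.49 and −0.50), both in log2 fold change. KIF27 has 3 close copies elsewhere in the genome that are at least 96.7% identical over at least 1203 bases, so that reads could be split among them, and its falls with olaparib and the combination were lost without vehicle replicate 2, the first also without olaparib replicate 2 and the second without combination replicate 1. KIF9, a motor of motile cilia, did not pass in any of the 4 comparisons with vehicle (log2 fold changes from −0.17 to 0.26). The remaining 5, KIF6, KIF12, KIF19, KIF25 and KIF26A, had group means under 1 FPKM in every group. KIF19 and KIF25 were not tested, KIF6 and KIF12 did not pass against vehicle, and KIF26A rose with VIC-1911 (0.83), olaparib (0.67) and the combination (0.74) in log2 fold change. The olaparib and combination rises were lost without vehicle replicate 2, and the olaparib rise also without olaparib replicate 3.

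**Figure D5:**
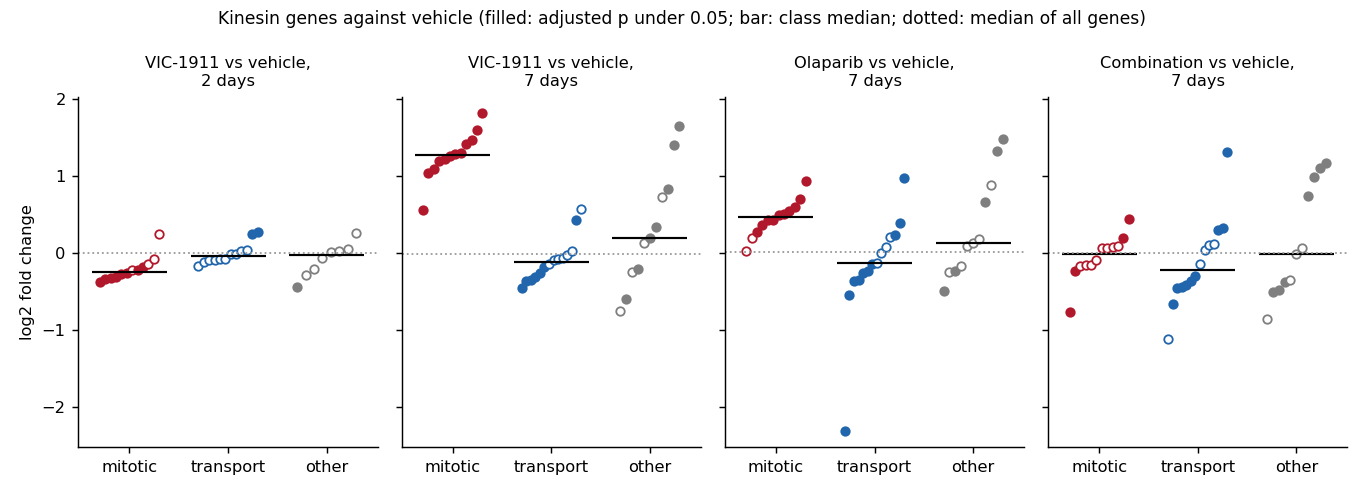
Log2 fold change (y axis) of each tested mitotic, transport and other kinesin (x axis) in the 4 comparisons with vehicle; filled points passed at an adjusted p under 0.05, bars are class medians and the dotted line the median of all genes tested. The mitotic median is −0.24 at 2 days and, at 7 days, 1.27 with VIC-1911, 0.47 with olaparib and −0.012 with the combination.

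Genes whose proteins work with the motors were counted from lists. Of 15 partners of the mitotic kinesins, 7 fell and none rose at 2 days, 15 rose with VIC-1911 at 7 days and 13 of them were called, where 7.19% of all genes fell at 2 days, and 26.6% rose and 3.46% were called higher at 7 days. With olaparib 11 rose (28.1% of all genes) and with the combination 5 fell (28.0% of all genes), none of them called. Against VIC-1911 14 of the 15 were called lower with the combination, as were 1.82% of all genes. Of the 13 partners called with VIC-1911 at 7 days, the 5 with the smallest adjusted p for the combination against vehicle are named, which picks the 5 that fell there, while the other 10 of the list did not pass. They were CENPE, a kinetochore kinesin whose symbol the naming rule does not catch, PRC1, which bundles the central spindle with KIF4A, ECT2, the cytokinesis activator of RHOA, PLK1, a mitotic kinase, and RACGAP1, the partner of KIF23 in centralspindlin. CENPE was at 2.34, 1.86 and 1.96 FPKM in vehicle, 6.24, 6.85 and 6.28 FPKM with VIC-1911 and 1.27, 1.71 and 1.52 FPKM with the combination. Its log2 fold change was 1.6 ± 0.084 with VIC-1911 (adjusted p = 8.64e-16) and −0.48 ± 0.098 with the combination (adjusted p = 1.28e-04). With VIC-1911 the log2 fold changes of PRC1, ECT2, PLK1 and RACGAP1 were 1.03, 1.19, 1.74 and 1.23, and with the combination −0.32, −0.24, −0.28 and −0.19.

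Of 17 cargo adaptors and light chains, 2 rose and 7 fell with VIC-1911 at 7 days, 4 rose and 4 fell with olaparib, and 6 rose and 4 fell with the combination. Over all genes 26.6% rose and 25.8% fell with VIC-1911, 28.1% and 25.9% with olaparib, and 28.6% and 28.0% with the combination. One of them, FEZ1, an adaptor of kinesin-1, was called, at a log2 fold change of 1.06 ± 0.24 with olaparib and 1.07 ± 0.24 with the combination (adjusted p = 5.25e-04 and 3.47e-04). Of 20 subunits of dynein and dynactin, the minus-end machinery, 7 rose and 3 fell with VIC-1911, 7 rose and 5 fell with olaparib and 8 rose and 6 fell with the combination, beside the same shares of all genes, and none was called. The proliferation markers differed among themselves under the combination. CDK1 was at 12.7, 9.2 and 11.4 FPKM in vehicle, 38.9, 38.9 and 42.5 FPKM with VIC-1911, 38.8, 43.9 and 38.1 FPKM with olaparib and 25.8, 26.5 and 24.9 FPKM with the combination. PCNA rose with the combination by 0.78, MCM2 by 0.40 and TOP2A by 0.21 on the log2 scale, while MKI67 fell with a log2 fold change of −0.62. CCNB1 (0.051), CCNA2 (0.087) and CCNE2 (0.12) did not pass there.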

How the data were processed

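PolyA RNA of 18 libraries of C4-2B cells was sequenced. Per the labels and the study's methods the authors used Trimmomatic for trimming and STAR for alignment to GRCh38 (version 2.6.0 in the labels, another in the methods), then counted reads per gene. The annotation, the strand setting and the handling of shared reads are not given in the sources used here. The deposited counts are raw whole numbers, and the deposited FPKM values were made by the authors with a script of their own. At 2 days the FPKM do not follow exactly from the counts: KIF4B had 4, 1 and 6 counts in vehicle at 0 FPKM. For 31 kinesin genes with more counts, FPKM over counts lay between 0.942 and 1.03 of the median gene.

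Counts were tested with edgeR 4.0.16 in R 4.3.3 (TMM scaling, quasi-likelihood test, at least 10 counts in at least 3 libraries, Benjamini-Hochberg adjustment over all genes tested), with 1 fit for the 6 libraries of 2 days, 1 for the 12 of 7 days and 1 for the vehicle and VIC-1911 libraries of both times. FPKM values were used for levels. Alternatives used DESeq2 1.42.0, limma 3.58.1 on log2(FPKM + 0.1) and log2(FPKM + 1), glmTreat, other scalings and filters, a replicate block, and each library left out. Scripts were tested on simulated data. Sample groups came from the labels. The kinesin classes and other lists were chosen with earlier results of these data known. Values are given for every mitotic kinesin tested. They are given for transport and other kinesins whose group mean reached 1 FPKM or that were called against vehicle. They are also given for up to 5 called genes of each partner list, and for the proliferation markers. KIF26A, KIF6, KIF12 and KIF17 were added after their values were seen. The adaptor KIFAP3, which was not called, was named outside this rule. Libraries of one group differed by more than sampling noise. The 28 rows whose gene names had become dates, under 0.2% of counts, were kept. Gene overlaps were read from GENCODE and close copies found with blastn 2.17.0. Promoters came from RefSeq GRCh38.p14, and protein sequences were not analysed here.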

Additional observations from a re-analysis of the deposited data

Results flagged for a closer look

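The effect of VIC-1911 at 7 days differed between cultures without and with olaparib in 21 of the 37 kinesin genes tested, by the interaction term of the edgeR fit with an adjusted p under 0.05. The difference was lower in 18 and higher in 3, where 22.9% of all genes were lower and 21.0% higher. Among the mitotic kinesins the interaction, on the log2 scale, was found in KIF11 (−1.87), KIF14 (−2.05), KIF15 (−1.85), KIF18A (−2.04), KIF18B (−1.9), KIF20A (−2.43), KIF20B (−1.49), KIF22 (−0.64), KIF23 (−1.73), KIF2C (−1.52), KIF4A (−2.05) and KIFC1 (−1.85). Among the transport kinesins it was found in KIF1A (0.28), KIF1C (−0.52) and KIFC2 (0.70), and among the other kinesins in KIF21B (−1.96), KIF24 (−0.90), KIF26A (−0.76), KIF27 (0.58), KIF2A (−0.25) and KIF7 (−1.75). The values of KIF26A, KIF27 and KIF2A were each lost without any one of several single libraries. KIF21B rests on counts of 3 to 12 in the vehicle libraries.

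The effect of VIC-1911 differed between 7 and 2 days in 20 of 36 kinesin genes, by the same kind of term in the fit of both times, higher at 7 days in 15 and lower in 5, where 14.6% of all genes were higher and 14.2% lower. The mitotic values, on the log2 scale, were KIF11 (1.65), KIF14 (1.51), KIF15 (1.43), KIF18A (1.34), KIF18B (1.71), KIF20A (1.89), KIF20B (1.16), KIF22 (0.72), KIF23 (1.52), KIF2C (1.41), KIF4A (1.67) and KIFC1 (1.54). The transport values were KIF1A (−0.41), KIF3B (−0.27), KIF5C (−0.48) and KIFC2 (−0.39), and the others KIF21A (−0.24), KIF21B (1.58), KIF24 (0.76) and KIF7 (1.68). Those of KIF21A and KIF21B were lost without any one of several single libraries. The 2 times are separate experiments, so that time and experiment cannot be told apart. Single libraries were not screened as outliers, since each group holds 3.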

How the results depend on the processing

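Among single kinesin genes, 4861 of 5119 repeated values stayed on the same side of the threshold, 179 lost it and 79 gained it. Where either value passed, 0 reversed direction. Values that passed in neither fit could change sign and were counted as unchanged. The mitotic counts of 12 for the interaction and for the difference between times stayed at 12 in every alternative. Shares of all genes were counted in the main fits only. The cause of the changes below was not tested.

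At 2 days the mitotic kinesins that passed numbered 3 with DESeq2, and 4 to 7 with each library left out (4 without vehicle replicate 1 or VIC-1911 replicate 2). The transport kinesins that passed numbered 1 with DESeq2 and with limma on log2(FPKM + 0.1) and log2(FPKM + 1), and 1 to 3 with each library left out. For VIC-1911 at 7 days glmTreat called 7 mitotic kinesins. The transport median was −0.084 without a count filter, −0.15 with the filter of 1 FPKM, −0.045 and −0.039 with limma, and −0.18 to −0.091 with each library left out, where 0 to 1 were called.

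For olaparib the mitotic kinesins called numbered 0 to 2 with each library left out. The transport kinesins called numbered 2 without scaling, 0 with the filter of 1 FPKM, glmTreat, both limma fits and the compared groups alone, and 0 to 2 with each library left out. Their median was −0.089 without scaling, −0.10 with limma on log2(FPKM + 1), and −0.17 to −0.10 with each library left out. For the combination the transport kinesins called numbered 0 with the filter of 1 FPKM, glmTreat and both limma fits and 0 to 2 with each library left out, and the mitotic kinesins that passed 2 to 6. Against olaparib 2 to 4 transport kinesins passed with each library left out.

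Against VIC-1911 the mitotic median of the combination was −1.10 with limma on log2(FPKM + 1), and 0 to 1 transport kinesins were called with each library left out. For olaparib against VIC-1911, 1 mitotic kinesin was called with glmTreat and with limma on log2(FPKM + 1), and 2 to 5 with each library left out (2 without olaparib replicate 3). The transport kinesins called numbered 0 with the filter of 1 FPKM, glmTreat, DESeq2, both limma fits and the compared groups alone, and 0 to 1 with each library left out. Those that passed numbered 3 with both limma fits and 3 to 5 with each library left out, and their median was 0.042 with upper-quartile scaling, 0.052 without a count filter, −0.013 and −0.013 with limma, 0.060 with the compared groups alone and −0.016 to 0.037 with each library left out. The mitotic interaction median was −1.47 with limma on log2(FPKM + 1), and 3 to 6 transport interactions passed with each library left out (6 without vehicle replicate 1 or combination replicate 1).

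Same-numbered libraries did not deviate together (mean r = 0.0141 over 3 pairs at 2 days and 0.0175 over 18 pairs at 7 days), so that the replicate number was taken to pair nothing. With the replicate block 2 transport kinesins were called for olaparib and 5 transport interactions passed, and no other count moved by over 1.5 times. In counts scaled by library size alone (CPM) in place of FPKM, with no correction for length, the mitotic to transport ratio was 0.517, 0.427, 0.159, 0.382, 0.226 and 0.175 in the order 2-day vehicle and VIC-1911, then 7-day vehicle, VIC-1911, olaparib and combination. The share of mitotic windows with TTTGAA or TTCGAA was 46.7% in the bases before the start. The depth, from 3245273 counts, limits the lowest kinesins.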
